A study of Mus musculus with 24 samples.

Results

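Mammary tumours of mice given entinostat alone (ENT) were set against tumours of mice given vehicle, 4 tumours against 4, out of 24 samples in the series. The samples were taken by their titles, ENT 1 to ENT 4 and Vehicle 1, 2, 3 and 5, and all 8 ran on the same nCounter cartridge of 12. RNA was counted with an immune panel of 750 endogenous genes, of which the 601 with a normalized count of at least 20 in at least 4 of the 24 samples were tested and 149 were left out. The other 16 samples received entinostat with antibodies to PD-1, CTLA-4 or HER2. They enter here through the filter on weak genes, through a shared estimate of the spread, to which 14 of them contribute, and, for ENT+PD1 on the same cartridge, through values given side by side.

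ENT mice received entinostat at 5 mg/kg by daily gavage, suspended in 0.5% methylcellulose. Vehicle mice received 0.5% methylcellulose with isotype antibodies, and the labels do not say whether ENT mice also received isotype antibodies. All were female FVB-Neu-N mice (the neu-N model), aged 7 to 8 weeks when 50000 NT2.5 cells were injected into the mammary fat pad. Treatment began 3 days later and ran for 3 weeks. NT2.5 is a single cell line that came from a spontaneous mammary tumour, so the 8 tumours share 1 tumour origin. The protocol states that studies in this model were run with and without anti-HER2, and no title among the 8 names that antibody. The labels give whole tumours as the source, but the extraction protocol leads on to sorting out immune cells, and the material behind the RNA is not stated. The series title names the PanCancer Immune panel and the label protocol a myeloid panel. The labels do not state that the tumours of a group came from separate mice, so the p-values reflect only how much these samples vary, which may be technical.

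Entinostat is an oral benzamide that inhibits class I histone deacetylases, the enzymes that remove acetyl groups from histone tails and from other proteins. HDAC1 and HDAC2 work in large corepressor complexes, and HDAC3 in the NCoR and SMRT complexes, so inhibition can raise or lower transcription depending on the gene. In mammary tumours the drug has been studied for its action on suppressive myeloid cells, regulatory T cells and antigen presentation, and the panel covers genes of each of these.

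Recovered counts totalled 395155 ± 36810 per ENT tumour and 330572 ± 93560 per vehicle tumour (SD, n = 4 each; exact two-sided permutation p = 0.229). The scaling factor recovered from the deposited values averaged 0.902 ± 0.108 in ENT and 1.198 ± 0.270 in vehicle tumours (exact permutation p = 0.114, n = 4 each). After scaling, the negative control probes averaged 7.48 ± 1.42 in ENT and 9.36 ± 1.64 in vehicle tumours (exact permutation p = 0.143, n = 4 each). A comparison of 4 against 4 cannot give an exact p under 0.0286. Among the tested genes, 521 were at 20 or more in at least 4 of the 8 tumours, and 18 were under 20 in all 8, having passed through other samples. The tumour marker Epcam and the myeloid marker Csf1r stood above the negative controls in all 8, so epithelial and myeloid RNA was present in both groups. Cd8a and Foxp3, which define CD8 and regulatory T cells, were at or near the negative controls.

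No gene passed the test. Of 601 genes, 0 had a limma Benjamini-Hochberg adjusted p under 0.05 (0.0% of those tested), and the lowest adjusted p was 0.494, for Ticam1. At an unadjusted p under 0.05 there were 27 genes lower in ENT tumours (4.49% of those tested) and 1 gene higher (0.166%), 28 in all or 4.66%, where a threshold of 0.05 passes 5% of genes when nothing differs. Run on the recovered counts, edgeR also called 0 genes, with 7 lower and 2 higher at an unadjusted p under 0.05, and DESeq2 called 0, with 4 lower and 2 higher. The count of 27 was 11 without ENT 1, 16 without ENT 2, 17 without Vehicle 3, 12 without Vehicle 5 and 30 without ENT 3. Limma on the 8 tumours alone, without the spread of the other arms, gave 54 lower and 5 higher at that threshold and called 0. The 4 ENT values all lay below the 4 vehicle values in 36 genes (5.99%) and all above them in 1 gene (0.166%). Except for Ticam1, each tested gene named here had a limma adjusted p of 0.998 or more.

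The differences were small and leaned towards lower values in ENT tumours. On the scale of log2(normalized count + 1), which understates the fold change of weak genes, 449 genes were lower in ENT tumours (74.7%) and 152 were higher (25.3%). Counts of lower and higher members in the gene lists are to be read against these shares. The median over all 601 genes was -0.12. When every tumour was rescaled to the same median over the tested genes, 297 genes were lower in ENT tumours (49.4%) and 304 higher (50.6%), a split near even by construction. The share lower was 66.1% with negative controls subtracted, and 53.9% with edgeR and 51.1% with DESeq2, which apply their own scaling. Whether depth or background has a part in it was not tested. On this scale differences ran from -0.96 for H2-Q10 to 0.83 for Dmbt1, both weak genes, and none reached 1 in size. With each tumour's mean negative control subtracted, 13 genes were below -1 and 10 above 1. C6 was lowest at -1.60, and H2-Q10 was at -1.35, Nod2 at -1.13 and Ulbp1 at 1.53. Without that subtraction, in 39 genes the difference was below -0.5, and in 5 it was above 0.5.

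**Figure D1:**
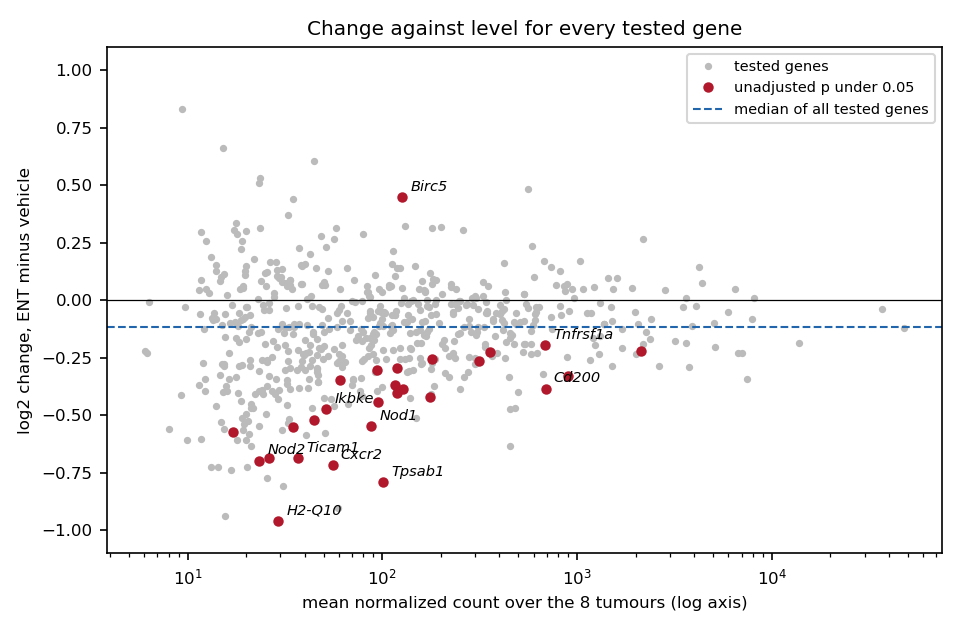
Log2 difference between ENT and vehicle tumours (vertical axis) against the mean normalized count over the 8 tumours (horizontal log axis), 1 point per tested gene; red points have an unadjusted limma p under 0.05 and the dashed line is the median of all genes, -0.12. Of the red points 27 lie below 0 and 1, Birc5, lies above, while none passed the adjusted test.

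The lean was larger in weak genes. The median log2 difference was -0.17 in the 236 genes averaging under 50 counts, -0.11 in the 269 genes from 50 to 500 and -0.083 in the 96 genes from 500 upwards. With each tumour's mean negative control subtracted the medians were -0.065, -0.10 and -0.083. The data bound the size of many differences: the unadjusted 95% interval lay within 2-fold in either direction for 406 of the 601 genes. It reached 2-fold lower in 170 genes and 2-fold higher in 83. These intervals hold 1 gene at a time and are not adjusted over the panel.

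The genes at the smallest unadjusted p included 4 of innate pattern recognition, among 27 genes lower at an unadjusted p under 0.05 (4.49% of those tested). Whether genes of this kind were over-represented there was not tested. Ticam1 encodes TRIF, the adaptor of the Toll-like receptors TLR3 and TLR4. Its normalized counts were 27.2, 24.8, 33.3 and 26.4 in ENT 1 to ENT 4, against 51.2, 41.4, 39.5 and 50.2 in Vehicle 1, 2, 3 and 5. Every ENT value lay below every vehicle value, the log2 difference was -0.69 ± 0.17 (SE, n = 4 each) and the interval ran from -1.05 to -0.33, with an unadjusted limma p of 0.000823 and an adjusted p of 0.494. Ikbke encodes a kinase that acts below TRIF and phosphorylates interferon regulatory factors. It had 40.8, 38.7, 48.4 and 44.3 in ENT tumours, against 63.7, 52.8, 62.1 and 61.7 in vehicle tumours. The groups did not overlap, with a log2 difference of -0.47 ± 0.17 and an unadjusted limma p of 0.0106.

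Nod1 and Nod2 encode cytosolic sensors of fragments of bacterial cell wall. Nod1 counts were 62.2, 78.2, 75.6 and 67.3 in ENT tumours, against 120.4, 89.9, 96.6 and 109.6 in vehicle tumours. Nod2 counts were 11.7, 18.6, 17.1 and 23.9 in ENT tumours, against 29.1, 29.96, 26.0 and 29.7 in vehicle tumours. Both genes were lower in all 4 ENT tumours than in any vehicle tumour, with log2 differences of -0.55 ± 0.19 and -0.70 ± 0.26, and Nod2 lay above its negative controls (mean plus 2 SD) in 3 of the 4 ENT tumours and in all 4 vehicle tumours. Irak2, a kinase of the MyD88 arm, had 106, 99.8, 121 and 115 in ENT tumours, against 133, 127, 150.3 and 171 in vehicle tumours. These groups also stood apart, at -0.39 ± 0.17 log2 units. With median rescaling the differences were -0.57 for Ticam1, -0.35 for Ikbke, -0.42 for Nod1, -0.58 for Nod2 and -0.26 for Irak2.

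The wider sets of sensors held members on both sides. Of 26 tested Toll-like receptor and adaptor genes, 17 were lower and 9 higher in ENT tumours, with a median of -0.064 (0.057 after median rescaling) against -0.12 over all genes, and 3 were lower at an unadjusted p under 0.05, as were 4.49% of all genes. Tlr6, the partner receptor of TLR2, averaged 29.0 ± 6.73 in ENT tumours and 37.9 ± 8.14 in vehicle tumours (SD, n = 4 each). Lbp, which carries lipopolysaccharide to its receptor, averaged 1358 ± 178 in ENT tumours and 1662 ± 286 in vehicle tumours. Of 11 genes for cytosolic sensors and the inflammasome, 9 were lower and 2 higher, with a median of -0.15 (from -0.26 without ENT 3 to -0.092 without Vehicle 3). Nlrp3, the sensor of the best known inflammasome, had 136, 197, 152 and 142 in ENT tumours, against 112, 147, 274 and 275 in vehicle tumours, and the groups overlapped.

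**Figure D2:**
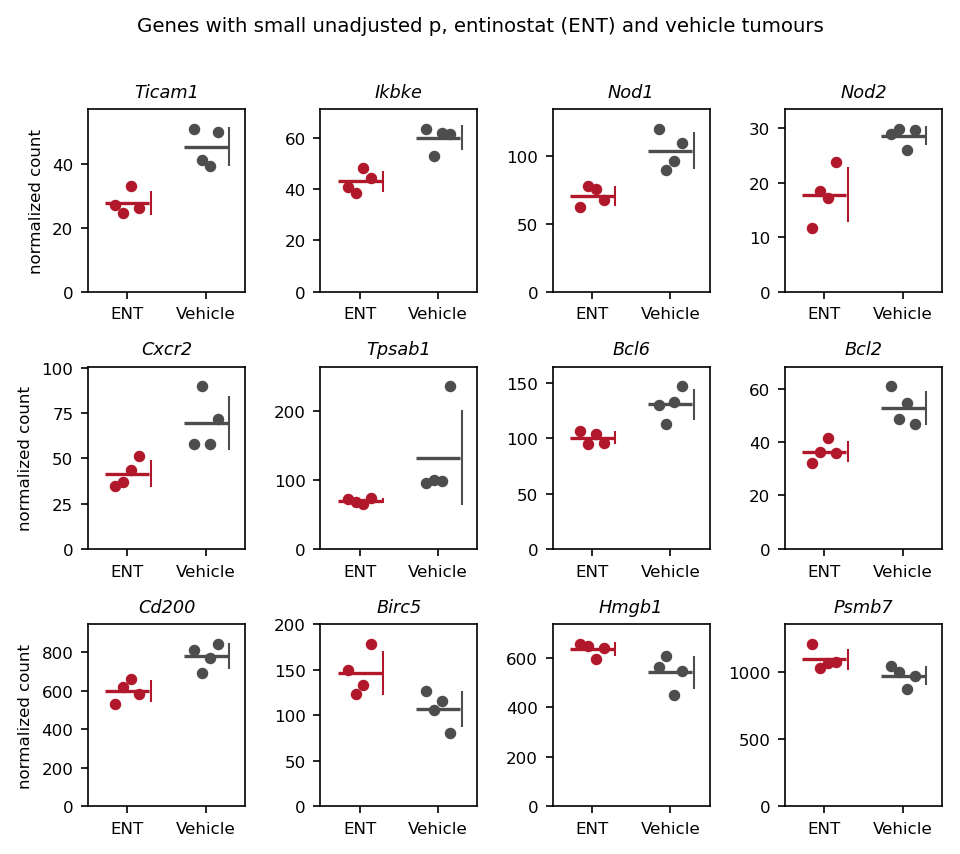
Normalized counts of 12 genes with a small unadjusted p, 1 point per tumour, ENT in red to the left and vehicle in grey to the right, with the mean (horizontal line) and SD (vertical line, n = 4). Ticam1, Ikbke, Nod1, Nod2, Cxcr2, Tpsab1, Bcl6, Bcl2 and Cd200 have all ENT points below all vehicle points, while Birc5, Hmgb1 and Psmb7 overlap.

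Among regulators of cell survival, Bcl2, which blocks the mitochondrial path to apoptosis, had 32.1, 36.4, 41.4 and 35.8 in ENT tumours, against 60.9, 48.5, 54.6 and 46.8 in vehicle tumours. The highest ENT value lay below the lowest vehicle value, at -0.52 ± 0.22 log2 units and an unadjusted limma p of 0.0291. Bcl6, a transcriptional repressor that recruits HDAC-containing corepressors, had 107, 95.2, 104 and 96.3 in ENT tumours, against 130.1, 113, 133 and 147 in vehicle tumours. Its groups were also apart, at -0.37 ± 0.15. Tnfrsf1a, the main receptor for TNF, averaged 636 ± 13.5 in ENT tumours and 728 ± 44.8 in vehicle tumours without overlap, and its difference was -0.19 ± 0.083 or -0.070 after median rescaling. Cd200, a surface ligand that restrains myeloid cells through its receptor, had 529.5, 622, 659.5 and 584 in ENT tumours, against 812, 693, 773 and 845 in vehicle tumours. No ENT value reached the lowest vehicle value, and the difference was -0.38 ± 0.17.

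A further 4 genes at small unadjusted p have other roles. H2-Q10 encodes a secreted class Ib MHC molecule and had 26.2, 10.8, 16.1 and 23.9 in ENT tumours, against 36.0, 67.1, 23.5 and 30.8 in vehicle tumours. The groups overlapped and Vehicle 2 stood highest, with a difference of -0.96 ± 0.36, and 1 ENT value was within the negative controls. Tpsab1, a mast cell tryptase, had 72.9, 68.9, 65.5 and 73.3 in ENT tumours, against 95.5, 99.9, 98.2 and 236 in vehicle tumours. Vehicle 5 was far above the other vehicle tumours, and the remaining 3 still exceeded all ENT tumours, with a difference of -0.79 ± 0.31 over all 8 and -0.48 without Vehicle 5. Sbno2, a transcriptional coregulator, averaged 149 ± 19.6 in ENT tumours and 202 ± 41.6 in vehicle tumours, at -0.42 ± 0.16. Lilra5, a leukocyte immunoglobulin-like receptor, averaged 20.5 ± 7.64 in ENT tumours and 32.0 ± 3.09 in vehicle tumours, at -0.69 ± 0.28, with overlap.

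Higher values in ENT tumours were fewer. Birc5 encodes survivin, which serves in mitosis and inhibits apoptosis, and had 149.6, 124, 133 and 179 in ENT tumours, against 127, 106, 116 and 81.1 in vehicle tumours. ENT 2 lay below Vehicle 1, so the groups overlapped, with a difference of 0.45 ± 0.21 and an unadjusted limma p of 0.0428. Hmgb1, a chromatin protein that acts as an alarm signal outside cells, averaged 634 ± 27.7 in ENT tumours and 541 ± 65.4 in vehicle tumours, at 0.24 ± 0.12 and an unadjusted limma p of 0.0554. The proteasome subunits Psmb7 and Psmb10 differed by 0.17 ± 0.094 and 0.28 ± 0.20, and the complement-binding mitochondrial protein gene C1qbp by 0.13 ± 0.10. Ewsr1, an RNA-binding protein gene, differed by 0.17 ± 0.11.

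Several of the higher genes were weak. Ulbp1, a ligand of the NK receptor NKG2D, had 26.2, 33.3, 19.2 and 31.5 in ENT tumours, against 11.1, 22.8, 27.7 and 16.0 in vehicle tumours, and lay above the negative controls in 4 ENT tumours and 2 vehicle tumours. S100b, a calcium-binding protein gene, had 59.3, 49.5, 57.5 and 45.2 in ENT tumours, against 58.1, 38.5, 25.2 and 24.0 in vehicle tumours. ENT tumours were high for S100b as a group, but Vehicle 1 lay inside their range. Pou2af1, a B cell coactivator, and Dmbt1, a secreted mucosal glycoprotein, stood above the negative controls in 2 ENT tumours and in 0 vehicle tumours each, so their differences of 0.66 ± 0.43 and 0.83 ± 0.61 have no measured size. Ifit2, an interferon-induced gene, differed by 0.37 ± 0.28, and Mapk11, a p38 kinase gene, by 0.31 ± 0.24. Ly9, a receptor of the SLAM family on lymphocytes, was the 1 gene with all ENT values above all vehicle values. It had 26.2, 23.2, 29.2 and 30.7 in ENT tumours, against 16.6, 22.8, 15.1 and 21.7 in vehicle tumours, and its unadjusted limma p was 0.332, with the spread taken over the 6 groups of the fit.

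The ENT+PD1 tumours, which also received entinostat and ran on the same cartridge, gave the following levels for the leading genes. They share no tumour with ENT or vehicle, and no test was made against either. Ticam1 had 47.1, 37.6, 39.8 and 43.6 in ENT+PD1 tumours 1, 2, 5 and 6, where 3 lay within the vehicle range and tumour 2 below it but above every ENT value. Ikbke averaged 67.4 ± 10.6, Nod1 98.0 ± 25.7 and Nod2 30.6 ± 9.89 in ENT+PD1 (SD, n = 4). These 3 means also lay nearer the vehicle means than the ENT means. Bcl2 averaged 35.6 ± 8.65, Bcl6 101 ± 21.3 and Cd200 576 ± 152, and these 3 lay nearer the ENT means. Cxcr2 averaged 72.1 ± 29.1 and Tpsab1 113 ± 20.6, nearer the vehicle means. ENT+PD1 5 and 6 stood high over the whole panel, with median log2 values over the tested genes of 6.93 and 7.14. Among the ENT and vehicle tumours that median ran from 6.28 to 6.66. Its part in the ENT+PD1 means was not tested, and the genes were chosen on the ENT and vehicle values.

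Neutrophil genes had the lowest median of the 28 lists over all 8 tumours. Without ENT 2, Vehicle 2 or Vehicle 5 the endothelial median was the lowest, and without Vehicle 3 the NK median. Of 12 tested members 11 were lower and 1 higher in ENT tumours, with a median of -0.43 against -0.12 over all genes, or -0.31 after median rescaling and -0.25 without Vehicle 5, and 0 passed the test. In bulk RNA, fewer cells of a type and less RNA per cell cannot be told apart. Cxcr2, the receptor that draws neutrophils to CXC chemokines, had 35.0, 37.2, 43.4 and 51.1 in ENT tumours, against 58.1, 89.9, 57.9 and 71.9 in vehicle tumours. The groups did not overlap, and the difference was -0.72 ± 0.31 with an unadjusted limma p of 0.0318. Csf3r, the receptor for G-CSF, had 31.1, 43.4, 36.3 and 51.1 in ENT tumours, against 40.1, 57.1, 76.4 and 73.1 in vehicle tumours, with overlap, at -0.58 ± 0.29. Fpr2, a receptor for formyl peptides, had 17.5, 24.0, 14.1 and 19.6 in ENT tumours, against 29.1, 29.96, 42.0 and 29.7 in vehicle tumours. All ENT values of Fpr2 were below those of vehicle, but 2 of the 4 lay within the negative controls, and its unadjusted limma p was 0.0626.

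S100a8, a calcium-binding protein abundant in neutrophils, had 333, 336, 357 and 491 in ENT tumours, against 422, 586, 575 and 514 in vehicle tumours. ENT 4 lay among the vehicle tumours, and the interval of the difference ran from -1.60 to 0.66, which holds both no difference and a value 2-fold lower. Lcn2, an iron-withholding protein of neutrophils and epithelia, averaged 36106 ± 2595 in ENT tumours and 37169 ± 3278 in vehicle tumours, a difference of -0.040. Of 19 genes linked to suppressive myeloid cells, 15 were lower and 4 higher, at a median of -0.14 (-0.017 after median rescaling). Arg1, the arginase of such cells, had 149, 191, 201 and 195 in ENT tumours, against 162, 151, 287 and 166 in vehicle tumours. Vehicle 3 stood far above the others and the rest of the groups overlapped, with a difference of -0.016 and an interval from -0.87 to 0.84. Nos2, the inducible nitric oxide synthase, averaged 29.9 ± 6.07 in ENT tumours and 36.9 ± 7.22 in vehicle tumours, Arg2 27.8 ± 11.3 in ENT tumours and 38.6 ± 9.12 in vehicle tumours, and Cebpb, a transcription factor of emergency granulopoiesis, 1199 ± 114 in ENT tumours and 1409 ± 98.6 in vehicle tumours.

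Macrophage genes lay on both sides. Of 17 tested members 9 were lower and 8 higher in ENT tumours, with a median of -0.010 (0.11 after median rescaling, and from -0.10 without Vehicle 1 to 0.12 without Vehicle 3). Csf1r, the receptor for the macrophage growth factor CSF-1, had 379, 468, 433 and 458 in ENT tumours, against 313, 488, 683 and 569.8 in vehicle tumours. The ENT tumours lay inside the vehicle range. C1qa, a complement gene of tissue macrophages, differed by -0.011, with an interval from -0.65 to 0.63. Mrc1, the mannose receptor, had 284, 344, 303 and 205 in ENT tumours, against 154, 225, 370.3 and 202 in vehicle tumours, with overlap and a difference of 0.30 ± 0.69.

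Lymphocyte genes were mostly weak. Of 15 tested NK genes 12 were lower and 3 higher, at a median of -0.34 (-0.23 after median rescaling, and from -0.59 without Vehicle 3 to -0.20 without Vehicle 5). It was -0.083 over members at 20 or more in at least 4 of the 8 tumours and -0.10 with values under 20 raised to 20. The summed level took in all 23 NK genes measured, including 8 not tested. It ran from 259 to 384 in ENT and from 287 to 408 in vehicle tumours. Klrb1, an NK cell lectin receptor, had 15.6, 10.1, 14.1 and 13.6 in ENT tumours, against 29.1, 17.1, 14.3 and 22.8 in vehicle tumours, and lay above the negative controls in 0 ENT tumours and 2 vehicle tumours. Cd160, found on cytotoxic T cells and NK cells, had 15.6, 15.5, 16.1 and 15.3 in ENT tumours, against 24.9, 27.1, 17.6 and 24.0 in vehicle tumours. Its groups did not overlap, although 2 ENT values were within the negative controls. Klrk1, which encodes NKG2D, was within the negative controls in all 8 tumours.

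Of 13 tested T cell genes 11 were lower and 2 higher, at a median of -0.21 (-0.082 after median rescaling, and from -0.31 without ENT 3 to -0.071 without ENT 1). With values under 20 raised to 20 it was 0. The summed level of all 18 T cell genes measured, including 5 not tested, ran from 339.9 to 491 in ENT and from 407 to 493 in vehicle tumours. Much of that sum was Thy1, the strongest member, which is counted in the matrix and fibroblast list too. Cd28, the costimulatory receptor, had 36.9, 36.4, 48.4 and 45.2 in ENT tumours, against 49.8, 61.4, 29.4 and 63.9 in vehicle tumours, and Thy1 averaged 193 ± 27.3 in ENT tumours and 224 ± 41.4 in vehicle tumours. Icos, an inducible costimulator, had 9.72, 10.1, 35.3 and 6.82 in ENT tumours, against 23.5, 12.8, 28.6 and 17.1 in vehicle tumours. ENT 3 alone was high among the ENT tumours, and the other ENT values, Vehicle 2 and Vehicle 5 were within the negative controls. The 5 tested B cell genes gave 4 lower and 1 higher, with a median of -0.24. That median was -0.12 after median rescaling and -0.034 with values under 20 raised to 20. Among these genes Blnk, a B cell adaptor, differed by -0.25 ± 0.23. Tnfrsf13b, a receptor for BAFF, differed by -0.56 ± 0.36, or -1.19 with negative controls subtracted. The 4 mast cell genes gave 3 lower and 1 higher with a median of -0.32 (from -0.41 without Vehicle 1 to -0.17 without Vehicle 5), and Fcer1g, an Fc receptor chain shared by many myeloid cells, differed by -0.25 ± 0.24.

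Effector and checkpoint genes gave wide intervals. Only 2 of 11 cytotoxic effector genes were strong enough to test, 1 lower and 1 higher. Ifng, the interferon of T and NK cells, had 7.77, 10.8, 14.1 and 21.3 in ENT tumours, against 26.3, 11.4, 5.04 and 9.13 in vehicle tumours, and 1 tumour of each group lay above the negative controls. Of 18 tested checkpoint and costimulator genes 14 were lower and 4 higher, at a median of -0.076 (from -0.16 without ENT 3 to -0.056 without ENT 1). Cd274, which encodes PD-L1, had 35.0, 33.3, 52.4 and 21.3 in ENT tumours, against 24.9, 41.4, 80.6 and 59.4 in vehicle tumours, and the interval of its difference ran from -1.38 to 0.44. Ctla4 had 19.4, 6.19, 40.3 and 32.4 in ENT tumours, against 34.6, 40.0, 47.0 and 26.3 in vehicle tumours. Both genes overlapped between groups, and the interval for Ctla4 ran from -2.36 to 0.74. Pdcd1, which encodes PD-1, was left out as weak, with 6.80, 12.4, 16.1 and 11.1 in ENT tumours, against 11.1, 5.71, 10.1 and 9.13 in vehicle tumours. Cd8a had 1.94, 4.64, 1.01 and 3.41 in ENT tumours, against 6.92, 5.71, 3.36 and 4.57 in vehicle tumours, and Foxp3, the factor of regulatory T cells, had 5.83, 1.55, 8.07 and 5.11 in ENT tumours, against 11.1, 1.43, 12.6 and 7.99 in vehicle tumours. Differences in CD8 or regulatory T cell transcript were therefore not detectable at this depth.

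**Figure D3:**
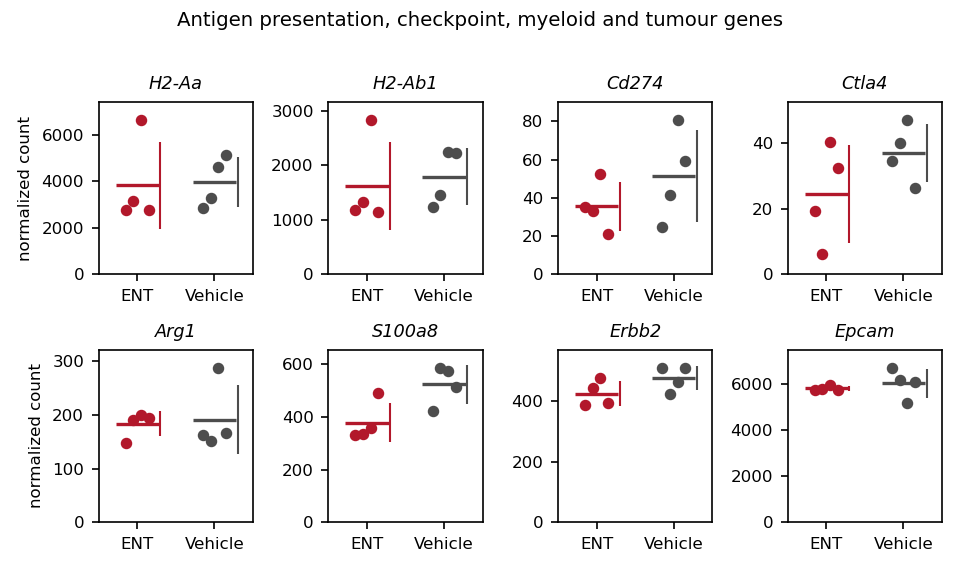
Normalized counts of antigen presentation, checkpoint, myeloid and tumour genes, 1 point per tumour, ENT in red to the left and vehicle in grey to the right, with mean (horizontal line) and SD (vertical line, n = 4). The groups overlap in all 8 genes, ENT 3 is highest in H2-Aa and H2-Ab1, and Vehicle 3 is highest in Arg1.

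For MHC class I and peptide loading, 13 of 15 tested genes were lower and 2 higher in ENT tumours, at a median of -0.26 (-0.14 after median rescaling, and from -0.31 without ENT 3 to -0.17 without Vehicle 3). Tap2, a chain of the transporter that moves peptides into the endoplasmic reticulum, had 76.8, 84.4, 72.6 and 89.5 in ENT tumours, against 87.2, 117, 119 and 119 in vehicle tumours. ENT 4 exceeded Vehicle 1, and the difference was -0.44 ± 0.19 with an unadjusted limma p of 0.0313. Psmb9, an immunoproteasome subunit, differed by -0.34 ± 0.25. The classical heavy chain genes were closer: H2-D1 averaged 3379 ± 216 in ENT tumours and 3855 ± 402 in vehicle tumours, and H2-K1 had 1077, 1076, 1145 and 1079 in ENT tumours, against 1067, 970.2, 1601 and 1005 in vehicle tumours. For H2-K1 the interval ran from -0.43 to 0.32, which lies within 2-fold of no difference.

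For MHC class II, 9 of 11 tested genes were lower and 2 higher, at a median of -0.16 (-0.032 after median rescaling, and from -0.34 without ENT 3 to -0.069 without Vehicle 5). H2-Aa, a class II alpha chain, had 2775, 3170, 6625 and 2787 in ENT tumours, against 2859, 3264, 4609 and 5142 in vehicle tumours. ENT 3 held more than any vehicle tumour, while ENT 2 lay near the low end of the vehicle range and ENT 1 and ENT 4 just below it. H2-Ab1, a class II beta chain, had 1188, 1326, 2829 and 1143 in ENT tumours, against 1240, 1454, 2250 and 2224 in vehicle tumours, and Cd74, the invariant chain, had 2525, 3123, 5505 and 2481 in ENT tumours, against 2756, 3212, 5366 and 5062 in vehicle tumours, in the same order. H2-Ob, a class II chaperone chain of B cells, averaged 40.9 ± 7.62 in ENT tumours and 53.1 ± 11.97 in vehicle tumours. ENT 3 was also the highest ENT tumour in the mean of the T cell, dendritic cell and chemokine lists, at 0.30, 0.34 and 0.27 log2 units against the vehicle mean. Of 10 dendritic cell genes 5 were lower and 5 higher. Xcr1, of cross-presenting dendritic cells, had 18.5, 8.51, 16.1 and 16.2 in ENT tumours, against 27.7, 40.0, 15.9 and 19.4 in vehicle tumours, and Cd83, an activation marker, differed by 0.14 ± 0.38.

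Signalling lists had small medians. All 11 tested JAK and STAT genes were lower in ENT tumours, where 74.7% of all genes were, with a median of -0.21 that became -0.084 after median rescaling (from -0.31 without Vehicle 1 to -0.063 without Vehicle 3). Jak3, the kinase of common gamma chain receptors, had 97.2, 98.3, 95.8 and 115 in ENT tumours, against 115, 114, 168 and 148 in vehicle tumours. ENT 4 reached the lowest vehicle values, and the difference was -0.41 ± 0.18. Stat6, which carries IL-4 and IL-13 signals, had 274, 295, 290.4 and 279 in ENT tumours, against 310.0, 321, 381 and 361 in vehicle tumours, with no overlap, at -0.27 ± 0.12. Tyk2, a kinase of interferon receptors, differed by -0.35 ± 0.24. Stat3, a target of many cytokines, averaged 1462 ± 52.5 in ENT tumours and 1559 ± 93.6 in vehicle tumours, at -0.092 with an interval from -0.28 to 0.093.

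Of 14 NF-kB subunit and kinase genes 13 were lower and 1 higher, at a median of -0.073 (0.051 after median rescaling, and from -0.17 without Vehicle 1 to -0.040 without ENT 4), nearer 0 than the panel's. Ikbkg, the regulatory subunit of the IkB kinase, had 73.8, 59.6, 76.6 and 76.7 in ENT tumours, against 87.2, 87.0, 92.4 and 77.6 in vehicle tumours, without overlap, at -0.26 ± 0.17, and Map3k5, a stress kinase, differed by -0.26 ± 0.12 without overlap. Of 24 type I interferon response genes 18 were lower and 6 higher, close to the share over all genes, at a median of -0.085 (0.039 after median rescaling). Ifi44, an interferon-induced gene, had 19.4, 17.8, 17.1 and 9.37 in ENT tumours, against 22.1, 19.97, 28.6 and 26.3 in vehicle tumours, below every vehicle value in all 4 ENT tumours. Of 17 genes of TNF and interleukin-1 signalling 12 were lower and 5 higher, and of 12 haematopoietic kinase and Fc signalling genes 10 were lower and 2 higher. Il6 differed by -0.39 ± 0.77 and its receptor Il6ra by -0.43 ± 0.30. Of 9 TGF-beta pathway genes 8 were lower and 1 higher, at a median of -0.13 (-0.0037 after median rescaling), and Smad3, a signal carrier of that pathway, averaged 188 ± 18.1 in ENT tumours and 216 ± 31.6 in vehicle tumours.

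Epithelial genes lay close to the vehicle level. Of 9 epithelial and tumour genes 7 were lower and 2 higher, at a median of -0.051 (0.074 after median rescaling). Epcam, an epithelial adhesion molecule, had 5761, 5795, 5971 and 5765 in ENT tumours, against 6708, 6203, 5192 and 6124 in vehicle tumours, and its interval ran from -0.38 to 0.27. Erbb2, the mouse gene for HER2 (the line carries the rat neu gene, whose match to the probe is not known here), had 389, 444, 476 and 393 in ENT tumours, against 508, 425, 464 and 509 in vehicle tumours. Both overlapped between the groups. Clu, Fos and Lgals3, among the panel's strongest genes, differed by -0.23, -0.19 and -0.23.

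Endothelial genes were lower in ENT tumours in 10 of 10 tested members, where 74.7% of all genes were, and 0 passed the test. Their median was -0.29, or -0.17 after median rescaling and -0.0037 with the replicate number as a block over 22 samples. Vwf, which endothelium stores for clotting, had 74.8, 85.2, 67.6 and 42.6 in ENT tumours, against 77.5, 67.1, 119 and 95.9 in vehicle tumours. Eng, a TGF-beta co-receptor of vessels, had 165, 237, 138 and 106 in ENT tumours, against 170.2, 148, 299 and 216 in vehicle tumours. ENT 4 was lowest and Vehicle 3 highest in both genes, and the remaining 6 tumours overlapped. The list median was -0.092 without Vehicle 3, -0.12 without ENT 4 and -0.46 without Vehicle 2. The summed level of all 11 endothelial genes measured, including 1 not tested, ran from 1257 to 2402 in ENT and from 1577 to 2880 in vehicle tumours. The part of vessel content in other differences was not tested. Angpt2, a vessel-destabilising ligand, differed by -0.31 ± 0.26 and Pecam1, a junction molecule of endothelium, by -0.18 ± 0.48.

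Of 12 matrix and fibroblast genes 7 were lower and 5 higher, at a median of -0.12. Col4a1, of basement membrane, had 787, 890.2, 776 and 707 in ENT tumours, against 934, 806, 1317 and 971 in vehicle tumours, with an unadjusted limma p of 0.0458. Vehicle 3 was again highest. Pdgfrb, of pericytes and fibroblasts, had 27.2, 28.6, 24.2 and 27.3 in ENT tumours, against 29.1, 38.5, 51.2 and 33.1 in vehicle tumours, with no overlap, at -0.46 ± 0.33. Spp1, which encodes osteopontin, averaged 45732 ± 4720 in ENT tumours and 49919 ± 6710 in vehicle tumours, a difference of -0.12, equal to the shift of the panel.

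Genes closer to the drug's target gave no called difference. Hdac3, the class I deacetylase on the panel, is 1 of the table's 20 housekeeping genes and so was not tested. It had 447, 390.1, 464 and 458 in ENT tumours, against 489.9, 468, 406 and 467 in vehicle tumours, with overlap. The 20 housekeeping genes have the same geometric mean in every sample, so the level of Hdac3 is not independent of the scaling. Of 6 tested acetylation and chromatin regulators 5 were lower and 1 higher, at a median of -0.14, and Crebbp, an acetyltransferase, averaged 321 ± 36.4 in ENT tumours and 347 ± 27.4 in vehicle tumours. Cdkn1a encodes p21, a cell cycle inhibitor that deacetylase inhibitors raise in many cultured cells. It had 523, 531, 582 and 476 in ENT tumours, against 632, 495, 784 and 601 in vehicle tumours, and the interval of its difference ran from -0.59 to 0.12, so that a 2-fold rise lies outside it. Of 17 cell cycle and apoptosis genes 13 were lower and 4 higher.

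**Figure D4:**
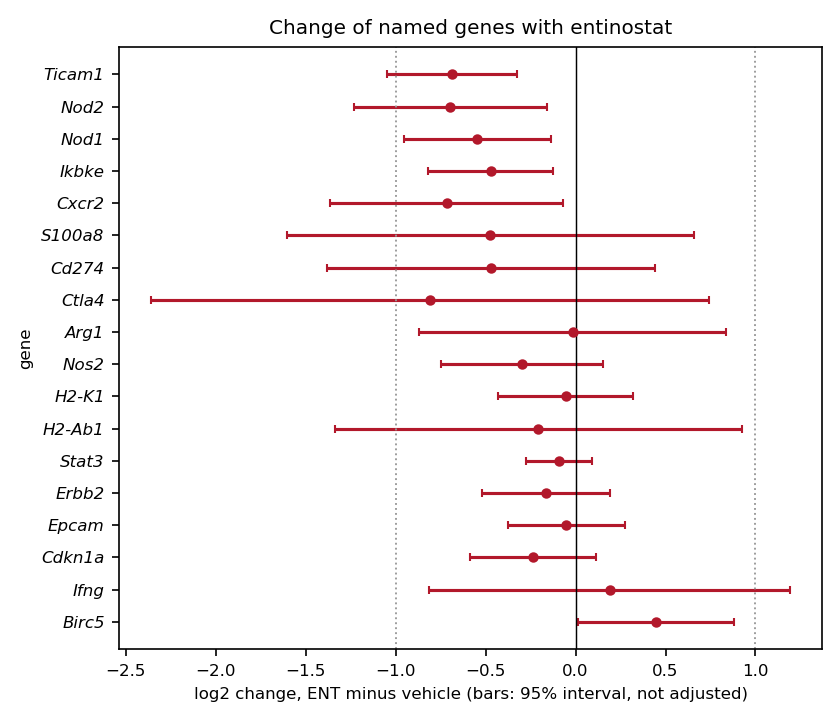
Log2 difference between ENT and vehicle tumours (points) with its unadjusted 95% interval (bars, limma, n = 4 each) for 18 genes, dotted lines marking 2-fold. Intervals of Stat3, Epcam and Cdkn1a lie within the dotted lines, while those of S100a8, Cd274, Ctla4 and H2-Ab1 cross 2-fold lower.

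Chemokine genes split in both directions. Of 28 tested, 16 were lower and 12 higher, at a median of -0.030 (0.092 after median rescaling, and from -0.26 without ENT 3 to 0.011 without ENT 1), and of 13 chemokine receptor genes 9 were lower and 4 higher, including Ccrl2, a chemerin-binding receptor, at -0.23 ± 0.29. Cxcl1, a ligand of CXCR2, had 2782, 2287, 2749 and 1721 in ENT tumours, against 1686, 1819, 2163 and 2160 in vehicle tumours. Ccl2, which draws monocytes, had 805, 717, 539 and 516 in ENT tumours, against 335, 422, 761 and 392 in vehicle tumours. Higher means for both came with overlap, at 0.27 ± 0.29 and 0.48 ± 0.65. Cxcl12, made by stroma, had 389.6, 471, 400.4 and 189 in ENT tumours, against 504, 408, 594 and 659 in vehicle tumours, with ENT 4 lowest, and Cx3cl1, fractalkine, differed by -0.35 ± 0.24. Cxcl9, an interferon-induced ligand, had 7.77, 16.3, 20.2 and 2.56 in ENT tumours, against 26.3, 17.1, 20.1 and 13.7 in vehicle tumours, above the negative controls in 2 tumours of each group. Of 20 complement genes 13 were lower and 7 higher. C1s1 and C1ra, proteases of the first component, had all ENT values below all vehicle values, at -0.51 ± 0.65 and -0.41 ± 0.42. C6, a terminal component, differed by -0.73 ± 0.48, or -1.60 with negative controls subtracted, so its size depends on the background.

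Single tumours stood at the extremes of many genes. Vehicle 3 was the highest of the 8 tumours in 214 of 601 genes and ENT 4 the lowest in 150. The first principal component held 29.0% of the variance and set Vehicle 3 (-8.58) apart from the other vehicle tumours (-2.61 to 2.71), while ENT tumours ran from -2.01 to 5.86. The second component held 22.8%. On it ENT 1, ENT 2 and ENT 4 scored -3.50, -5.17 and -3.49, and Vehicle 1, 2 and 5 scored 5.30, 2.30 and 3.22. ENT 3 (3.83) and Vehicle 3 (-2.49) lay on the side of the other group. The median SD on the log2 scale was 0.208 over ENT tumours and 0.276 over vehicle tumours, and 366 genes (60.9%) varied more in vehicle. Whole-panel profiles correlated at 0.981 on average within ENT, 0.977 within vehicle and 0.979 between the groups (Pearson over genes, which are not independent).

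**Figure D5:**
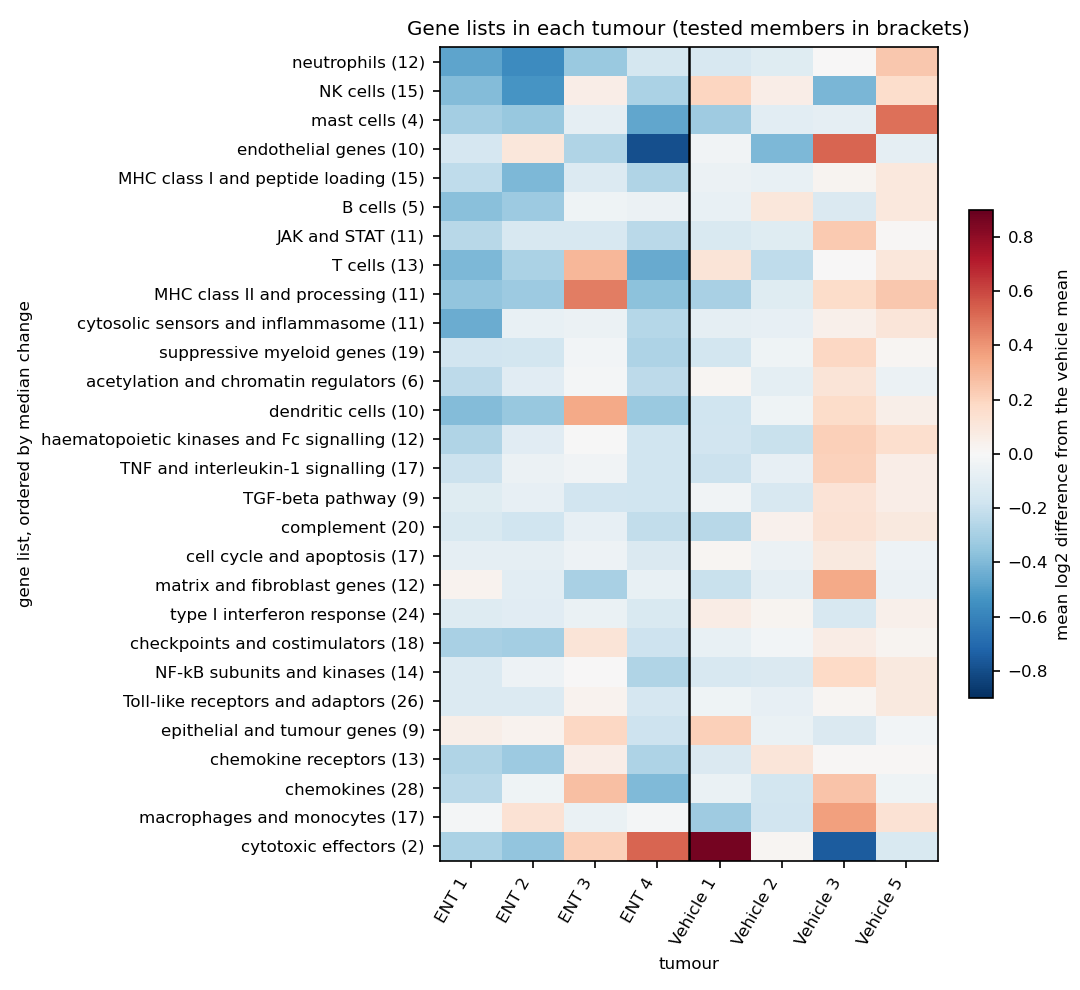
Mean log2 difference from the vehicle mean (colour) for the tested members of 28 gene lists (vertical axis, members in brackets) in each tumour (horizontal axis, ENT left of the line and vehicle right of it). Neutrophil genes run from -0.57 to -0.16 in the 4 ENT tumours, ENT 3 is the only ENT tumour above 0 for MHC class II (0.46), and ENT 4 (-0.79) and Vehicle 3 (0.52) are the extremes for endothelial genes.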

How the data were processed

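The authors deposited a table of normalized counts for 24 tumours, read here as signal on a linear scale. Limma is named without a role in the submitters' processing notes, and the normalization is not given in the sources used here. Every sample in the deposited table had a housekeeping geometric mean of 346.9. Dividing a sample by its own scaling factor gave whole numbers for 100% of values above 1 (tolerance 0.05). Values at exactly 1, 0 to 10 per tumour here, are not whole multiples of the factor and were read as weaker values raised to 1. A stricter check of whole steps passed for 14 of the 24 samples and not for 10, and the recovered totals, edgeR 4.0.16 and DESeq2 1.42.0 rest on this recovery.

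Endogenous genes at 20 or more in at least 4 samples were taken as log2(value + 1) and tested in limma 3.58.1 (R 4.3.3; lmFit, eBayes with trend) over 22 samples in 6 groups, leaving out 2 samples whose titles repeat others. Intervals are limma's, p-values were adjusted over 601 genes, and calls needed an adjusted p under 0.05. The fit was also run on simulated data. The outcome is not given here, and nothing is drawn from it about the fit's power in these tumours. Above the negative controls means above their mean plus 2 SD in that tumour. Principal components used the 8 tumours.

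The named genes were any called, the 12 with the smallest unadjusted p in each direction, the member with the smallest p and the strongest member of each of 28 lists, the 8 strongest genes and 16 chosen genes. Values are given for 71 of the 86 selected. Another 14, with log2 differences from -0.14 to 0.066, were left out after their values were seen, and 29 outside the rule were added after their values were seen. The members and lists were chosen with earlier results of these data known. A gene that the rule selects is not reported here, though it stayed in every test. ENT and vehicle tumours with the same number correlated at 0.025, -0.30 and -0.078 (deviations from group means), so numbers were not taken as pairs. The alternatives changed the pseudocount, filter, scaling, background, samples and tool.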

Additional observations from a re-analysis of the deposited data

Results flagged for a closer look

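Within-group gaps were examined for 100 named genes in 200 groups of 4 tumours, and 16 groups held a tumour whose gap to its nearest neighbour exceeded Dixon's 95% critical share of the group's range on the log2 scale. Chance alone gives about 1 such group in 20. In ENT tumours, ENT 3 stood highest for H2-Aa (6625, against 2775 to 3170 in the other 3), H2-Ab1 (2829), H2-K1 (1145) and Epcam (5971). ENT 2 stood lowest for Psmb9 (44.9) and Ikbkg (59.6), ENT 1 lowest for Arg1 (149) and ENT 4 highest for Jak3 (115). In vehicle tumours, Vehicle 3 stood highest for Sbno2 (264), Fpr2 (42.0) and Arg1 (287), and lowest for H2-Ob (35.3) and Cx3cl1 (63.8). Vehicle 5 stood highest for Tpsab1 (236), Vehicle 2 lowest for Ikbke (52.8) and Vehicle 1 lowest for Tap2 (87.2).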

How the results depend on the processing

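The count of called genes was 0 under every alternative run, and the lowest adjusted p ranged from 0.236, with values under 20 raised to 20, to 1, with quantile normalization. Genes lower in ENT tumours at an unadjusted p under 0.05 (27) numbered 3 with median rescaling, 6 with quantile normalization, 54 in the 8 tumours alone, 7 with edgeR and 4 with DESeq2. Genes higher (1) numbered 0 with median rescaling, 4 with quantile normalization, 3 with negative controls subtracted, 5 in the 8 tumours alone, 5 with that subtraction in the 8 tumours alone (chosen after seeing the data), 2 with edgeR and 2 with DESeq2. Groups did not overlap, lower in ENT tumours (36), in 13 genes with median rescaling and 14 with quantile normalization. Higher in ENT tumours (1), they numbered 3 with housekeeping genes included, 4 with median rescaling, 6 with quantile normalization and 3 with negative controls subtracted, in the 22 samples or in the 8 alone. The median over all genes was 0.0035 with median rescaling and 0.0013 with quantile normalization, which set it near 0 by construction.

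With 1 tumour left out, genes lower at an unadjusted p under 0.05 numbered 11 to 30 and higher 0 to 2. Genes without overlap numbered 40 to 70 lower and 2 to 7 higher, where 3 values are easier to separate than 4. The median over all genes ran from -0.17 to -0.089. Ranges that crossed 0 were -0.11 to 0.19 for Arg1, -0.16 to 0.063 for C1qa, -0.069 to 0.30 for Cd83, -0.12 to 0.000462 for Epcam, -0.41 to 0.027 for H2-Aa, -0.13 to 0.11 for H2-K1, -0.14 to 0.58 for Ifng and -0.10 to 0.000333 for Lcn2.

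Genes near 0 also changed sign under other settings. Median rescaling gave Lcn2 0.084, Stat3 0.032, H2-K1 0.069, H2-Aa 0.013, Spp1 0.0020, C1qa 0.11, Arg1 0.11, Epcam 0.074 and Crebbp 0.0079. EdgeR gave Lcn2 0.058, Stat3 0.014, H2-K1 0.027, H2-Aa 0.050, C1qa 0.082, Arg1 0.051 and Epcam 0.043. DESeq2 gave Lcn2 0.076, Stat3 0.031, H2-K1 0.042, H2-Aa 0.060, C1qa 0.098, Arg1 0.071, Epcam 0.061 and Crebbp 0.0055. Quantile normalization gave C1qa 0.10, Arg1 0.11 and Epcam 0.047. A floor of 20 gave Icos 0.018 and Ifng -0.076, and subtraction of negative controls gave Arg1 0.0027, with 22 or 8 samples. The cause was not tested.

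Replicate numbers were not taken as pairs, although the few same-numbered tumours cannot exclude pairing. With the number as a replicate block, 0 genes were called, 13 were lower and 0 higher at an unadjusted p under 0.05 in the 22 samples, and 22 lower and 2 higher in the 8 alone, with medians of -0.063 and -0.082. The block over 22 samples gave H2-Aa 0.090, Pecam1 0.095, C1qa 0.097, Arg1 0.038 and Ifng -0.11. Over the 8 alone it gave H2-Aa 0.15, H2-Ab1 0.045, C1qa 0.041 and Ifng -0.13. Across settings, 2045 values of named genes did not reverse, a value of exactly 0 among these being allowed, and 55 reversed. Settings that changed only which genes were tested or which samples shared the spread leave each difference as it was. Part of the 2045 was therefore fixed in advance. Signal limits the weakest genes, and 4 tumours a group limit the precision of all of them.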
